A study of Danio rerio with 8 samples.

Results

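Pancreatic endocrine cells of every hormone type share a set of transcription factors, and 10 of these were followed here in sorted zebrafish cells: neurod1, isl1, pax6a, pax6b, nkx2.2a, rfx6, insm1a, insm1b, foxa2 and myt1a. They were chosen by name, as factors known to act in all islet endocrine cells, with earlier results of these data known. All 10 symbols stood in the deposited table of 31953 genes. The libraries came from pancreas of fish at 30 days post fertilization, and all fish carried Tg(ins:BB1.0L), driven by the insulin promoter, and TgBAC(sst1.1:memEGFP), an EGFP reporter of the somatostatin gene sst1.1. Cells were sorted by fluorescence into 3 groups: cells with the sst1.1 reporter alone (sst1.1+, 3 libraries), cells with both reporters (sst1.1+ins+, 3 libraries) and cells with the insulin reporter alone (ins+, 2 libraries). The 3 comparisons between these groups ask how the program common to endocrine cells is set in somatostatin cells, in beta cells and in the bihormonal cells. The labels do not state that the libraries of a group are separate fish, pools or sorts. The p-values therefore rest on the variation from library to library, and this variation may be purely technical.

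Endocrine cells arise from progenitors that switch on a basic helix-loop-helix inducer and then a cascade of factors that most of them keep for life. NeuroD1 is a basic helix-loop-helix activator of hormone genes. Isl1, Pax6 and Nkx2.2 are homeodomain proteins, Rfx6 is a winged-helix factor, Insm1 and Myt1 are zinc-finger proteins, and FoxA2 is a forkhead pioneer factor of the endoderm. Several of these genes have a pair of copies in zebrafish that descend from a genome duplication in the fish lineage, among them pax6a with pax6b and insm1a with insm1b.

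Gene totals ran from 23425079 to 30374029 counts in sst1.1+, from 24234927 to 24504469 in sst1.1+ins+ and were 16948429 and 19861081 in ins+. The hormone genes followed the labels: ins took 0.0642 to 0.125% of counts in sst1.1+, 11.1 to 13.1% in sst1.1+ins+ and 23.8 to 25.8% in ins+, and sst1.1 took 25.4 to 28.9%, 16.7 to 20.2% and 4.35 to 5.56%. Levels below are CPM, counts relative to the library total after scaling by TMM, a scaling that damps the weight of a few very abundant genes. CPM values are not divided by gene length, so the level of 1 gene, or of 1 sum of genes, is compared between groups. The parts that genes take of a sum are parts of the counts and do not rank their RNA levels. In bulk libraries, fewer cells of a type and less RNA per cell cannot be told apart. A gene was called when edgeR's quasi-likelihood test, adjusted by Benjamini-Hochberg over all 16418 genes tested, gave an adjusted p under 0.05.

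Of the 10 factors, 9 had enough counts to be tested. Between ins+ and sst1.1+, insm1b rose and foxa2 fell, and the other 7 tested members were not called. The called share of all genes tested was 4.03%, with 1.61% called higher and 2.42% called lower. Across the 9 members the median log2 fold change was 0.60, against -0.07 over all genes tested. The summed level of the members was 1467 to 1559 CPM in sst1.1+, 1562 to 1786 CPM in sst1.1+ins+ and 1975 to 2216 CPM in ins+. The largest part of this sum was pax6b, with means of 647, 680 and 987 CPM, which was not called. The means of foxa2, rfx6 and isl1 were lower in ins+ than in sst1.1+. Whether the members' count of 2 stands depended on single libraries and on the tool: it was 0 to 3 with each library left out in turn, 6 with DESeq2, which called 12.4% of all genes it tested, and 4 with limma-voom, which called 3.75%.

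**Figure D1:**
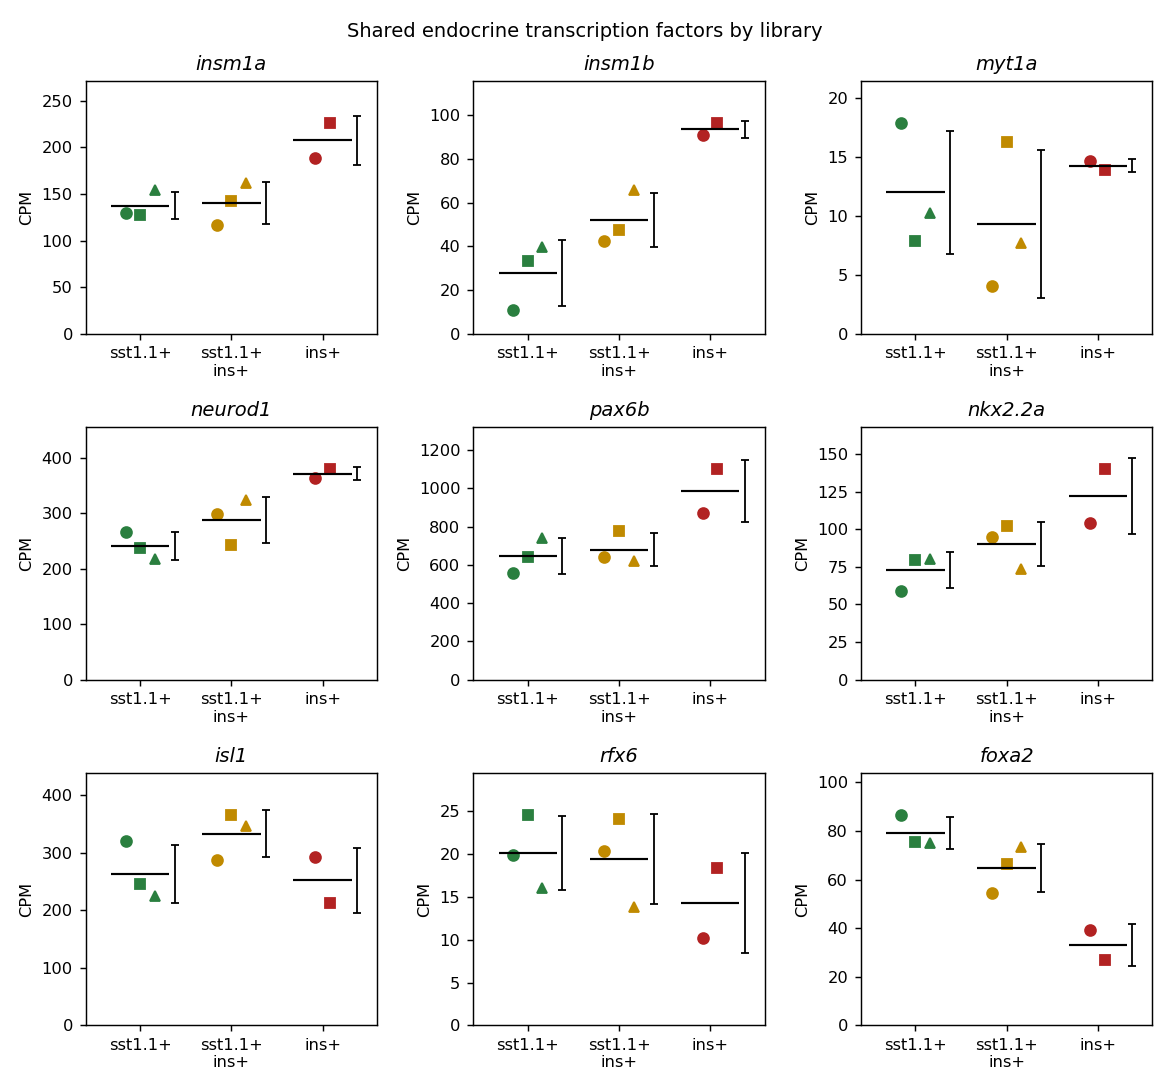
Level of the 9 tested factors in each library, in CPM on a linear axis that starts at 0; circles, squares and triangles are replicates 1, 2 and 3, the horizontal line is the group mean and the bar beside it the SD (n = 3, 3 and 2). The 3 groups do not overlap for insm1b, whose mean is 28.0 CPM in sst1.1+ and 93.6 CPM in ins+. Nor do they overlap for foxa2, whose mean is 79.1 CPM in sst1.1+ and 33.0 CPM in ins+.

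Insm1 is a zinc-finger repressor that endocrine cells need to differentiate, and its zebrafish copies differed in how far they varied between groups. The level of insm1b was 11.0, 33.2 and 39.8 CPM in the sst1.1+ libraries, 42.7, 47.6 and 65.9 CPM in the sst1.1+ins+ libraries and 90.8 and 96.4 CPM in the ins+ libraries. Every ins+ library was above every double-positive library, and every double-positive library was above every sst1.1+ library. The group means were 28.0 ± 15.06 CPM (SD, n = 3), 52.1 ± 12.2 CPM (n = 3) and 93.6 ± 3.97 CPM (n = 2). The spread within sst1.1+ came mainly from replicate 1, which held 328 counts of this gene against 817 and 900 in replicates 2 and 3.

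From sst1.1+ to ins+, insm1b rose 3.34-fold (log2 fold change 1.74, 95% interval 0.83 to 2.65, edgeR adjusted p = 0.0391). The size of the change held in every setting tried, at 1.36 to 2.15 on the log2 scale, while the call did not. Without sst1.1+ replicate 1, which is the lowest library, the log2 fold change was 1.36 and the call remained, with an edgeR adjusted p of 0.026. The edgeR adjusted p was 0.0876 without sst1.1+ replicate 2, 0.0798 without ins+ replicate 1 and 0.125 without ins+ replicate 2. It was 0.0621, 0.0655 and 0.0604 without replicates 1, 2 and 3 of sst1.1+ins+, which enter this comparison only through the filter, the scaling and the shared estimate of spread, and 0.11 with only the 2 groups compared in the fit.

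The other copy, insm1a, had a smaller fold change in these libraries. Its level was 130, 128 and 154 CPM in sst1.1+, 117, 142 and 162 CPM in sst1.1+ins+ and 189 and 226 CPM in ins+. The ins+ libraries lay above all others, and the other groups overlapped. The level in ins+ was 1.51 times that in sst1.1+ (log2 fold change 0.60, 95% interval of the fold 1.14 to 2.01), which was not called (edgeR adjusted p = 0.109), though DESeq2 called it with an adjusted p of 0.0273.

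The ratio of insm1b to insm1a counts within a library does not depend on the scaling between libraries. It was 0.0849, 0.259 and 0.258 in sst1.1+, 0.365, 0.335 and 0.407 in sst1.1+ins+ and 0.479 and 0.426 in ins+. The 3 groups did not overlap in this ratio. It was 2.53 times higher in ins+ than in sst1.1+ (log2 difference 1.34) and 2.06 times higher in sst1.1+ins+ than in sst1.1+ (log2 difference 1.04). Without sst1.1+ replicate 1 these log2 differences were 0.80 and 0.51. A two-sided exact permutation test gave p = 0.2 and p = 0.1, the smallest values that 3 against 2 and 3 against 3 libraries allow, and 0.2 each after Benjamini-Hochberg adjustment over the 6 ratio tests made, so this design cannot place the ratio past 0.05. Reads that match both copies cannot be assigned to either, and how they were counted is not given in the sources used here.

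**Figure D2:**
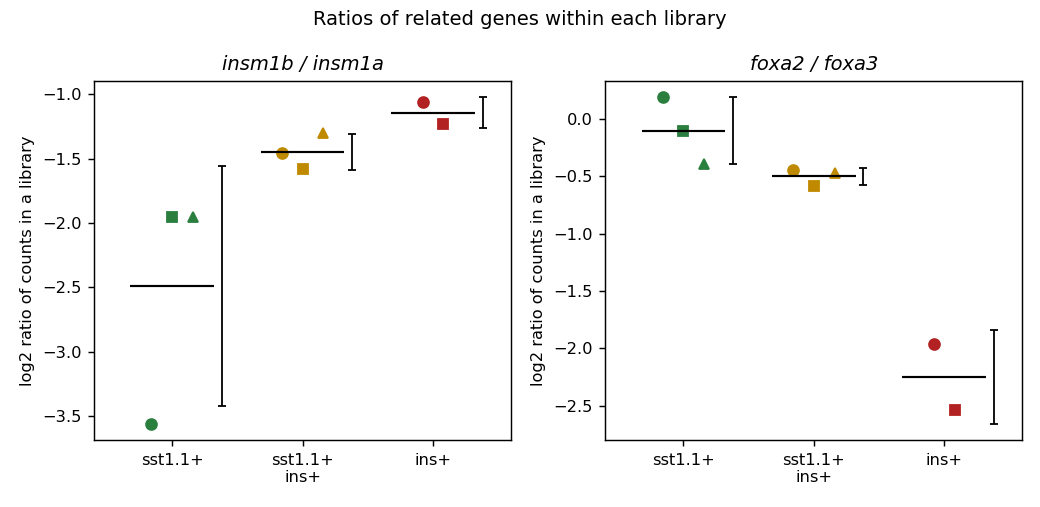
Log2 ratio of counts within each library for insm1b to insm1a (left) and foxa2 to foxa3 (right); circles, squares and triangles are replicates 1, 2 and 3, lines are group means and bars are SD (n = 3, 3 and 2). The ratio of insm1b to insm1a is higher in both groups with the insulin reporter than in sst1.1+, where replicate 1 lies at -3.56, and the ratio of foxa2 to foxa3 is lowest in the ins+ libraries, at -1.96 and -2.54.

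The second zinc-finger factor, myt1a, belongs to a family that promotes neuronal and endocrine differentiation, and it was the least precise member. Its level was 17.9, 7.88 and 10.3 CPM in sst1.1+, 4.03, 16.3 and 7.75 CPM in sst1.1+ins+ and 14.7 and 13.9 CPM in ins+. All 3 groups overlapped. The level in ins+ was 1.19 times that in sst1.1+ with a 95% interval of 0.484 to 2.92 times, and the difference was not called (edgeR adjusted p = 0.891). Its paralog myt1b, at 48.4, 53.6 and 69.5 CPM in sst1.1+, 46.9, 32.7 and 44.4 CPM in sst1.1+ins+ and 74.0 and 41.5 CPM in ins+, showed no called difference either.

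The activator neurod1, which binds hormone gene promoters together with E proteins, was at 267, 238 and 218 CPM in sst1.1+, 298, 243 and 324 CPM in sst1.1+ins+ and 363 and 380 CPM in ins+. Both ins+ libraries were above all 6 others, and sst1.1+ overlapped sst1.1+ins+. The group means were 241 ± 24.5 CPM, 289 ± 41.4 CPM and 371 ± 12.2 CPM (SD, n = 3, 3 and 2). The level in ins+ was 1.54 times that in sst1.1+ (log2 fold change 0.62, 95% interval 0.26 to 0.98) and missed the threshold with an edgeR adjusted p of 0.0596. It passed under 5 of 17 alternatives: DESeq2 (adjusted p = 0.00417), limma-voom (0.0347), no filter on low counts (0.0326), a filter of 1 CPM in 3 libraries (0.0498) and the fit without sst1.1+ins+ replicate 2 (0.0445).

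Of the homeodomain members, pax6b is the copy known in zebrafish for its work in the endocrine pancreas, where Pax6 maintains hormone gene expression. Its level was 557, 642 and 741 CPM in sst1.1+, 643, 778 and 620 CPM in sst1.1+ins+ and 872 and 1102 CPM in ins+. The ins+ libraries were the highest of the 8, and the ranges of the other groups overlapped in part. The group means were 647 ± 92.4 CPM, 680 ± 85.6 CPM and 987 ± 163 CPM (SD, n = 3, 3 and 2). The level in ins+ was 1.53 times that in sst1.1+ (log2 fold change 0.61, 95% interval 0.24 to 0.98), not called by edgeR (adjusted p = 0.0734). It was called by DESeq2 (adjusted p = 0.0116), by limma-voom (0.0209), with no filter on low counts (0.0134) and without sst1.1+ replicate 3 (0.0426).

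The pax6a gene was at 0 counts in all 8 libraries. A count of 0 allows up to 3 counts, or 0.0988 to 0.177 CPM on the unscaled library totals, a limit that covers counting error only. Whether the annotation or the handling of multiply aligned reads sets pax6a to 0 is not stated in the sources used here. The 0 therefore does not show that pax6a is not expressed. Of all gene rows, 29% were likewise at 0 in every library. No ratio of pax6b to pax6a could be formed, and pax6a entered no test.

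Nkx2.2 is a homeodomain repressor that in mouse is required for beta-cell differentiation. The level of nkx2.2a was 58.9, 79.7 and 80.2 CPM in sst1.1+, 94.8, 102 and 73.7 CPM in sst1.1+ins+ and 104 and 140 CPM in ins+. The ins+ libraries were again the highest, though ins+ replicate 1 lay just above the highest double-positive library. The level in ins+ was 1.68 times that in sst1.1+ (95% interval of the fold 1.19 to 2.35) and was not called by edgeR (adjusted p = 0.0974). DESeq2 and the fit with no filter on low counts called it, with adjusted p-values of 0.0238 and 0.0409. Its paralog nkx2.2b was at 0 counts in all libraries.

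The LIM homeodomain factor isl1, which marks postmitotic endocrine cells and activates hormone genes, was the member with the smallest difference between the single-positive groups. Its level was 320, 245 and 224 CPM in sst1.1+, 288, 366 and 346 CPM in sst1.1+ins+ and 292 and 212 CPM in ins+. All 3 groups overlapped. The log2 fold change from sst1.1+ to ins+ was -0.06 with a 95% interval of -0.51 to 0.38, and it turned to 0.10 without sst1.1+ replicate 1 and to 0.15 without ins+ replicate 2. The double-positive mean, 334 ± 40.5 CPM, was above both single-positive means of 263 ± 50.3 and 252 ± 56.6 CPM, by less than these libraries could call.

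Rfx6, known in mouse and human to be needed for islet formation, was also a member whose groups overlapped. The level of rfx6 was 19.9, 24.6 and 16 CPM in sst1.1+, 20.4, 24.1 and 13.8 CPM in sst1.1+ins+ and 10.2 and 18.4 CPM in ins+. Its log2 fold change from sst1.1+ to ins+ was -0.49 with a 95% interval of -1.38 to 0.39, so a fall to well under the sst1.1+ level and a modest rise both lay inside the interval (edgeR adjusted p = 0.575).

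The forkhead factor foxa2 was the only tested member called lower in ins+. FoxA proteins open chromatin in endoderm and its derivatives, and in mouse FoxA2 also acts in mature beta and alpha cells. The level of foxa2 was 86.7, 75.6 and 74.9 CPM in sst1.1+, 54.3, 66.6 and 73.5 CPM in sst1.1+ins+ and 39.1 and 27.0 CPM in ins+. The 3 groups did not overlap, although sst1.1+ins+ replicate 3 lay only just under the lowest sst1.1+ library. The group means were 79.1 ± 6.63 CPM, 64.8 ± 9.73 CPM and 33.0 ± 8.62 CPM (SD, n = 3, 3 and 2).

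From sst1.1+ to ins+, foxa2 fell 2.39-fold (log2 fold change -1.26, 95% interval -1.79 to -0.73, edgeR adjusted p = 0.0122). The call stood under 16 of 17 alternatives and was lost without ins+ replicate 2, the lower of the ins+ libraries (log2 fold change -1.02, edgeR adjusted p = 0.123). The summed level of ductal markers, whose cells also express FoxA genes, fell with it. It was 722.6 to 1028 CPM in sst1.1+, 547.9 to 716 CPM in sst1.1+ins+ and 294.7 to 369.8 CPM in ins+. This sum was mainly clu, krt8, anxa4, krt15 and epcam, with sst1.1+ means of 280, 237, 132, 109 and 102 CPM. Of 9 tested ductal markers, 5 were called lower in ins+. Among those not called, sox9b was at 0.899 ± 0.794 CPM in sst1.1+ and 1.71 ± 1.75 CPM in ins+ (SD). The gene cftr was at 0 in both single-positive groups. The part of duct cells in the foxa2 difference was not tested.

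Other FoxA genes did not all move the same way. The level of foxa3 was 76.1, 80.9 and 97.9 CPM in sst1.1+, 73.6, 99.7 and 101 CPM in sst1.1+ins+ and 153 and 157 CPM in ins+. It rose 1.82-fold from sst1.1+ to ins+ (edgeR adjusted p = 0.0329), and both ins+ libraries stood well above the other 6. This call was lost under 6 of 17 alternatives, with edgeR adjusted p-values of 0.108 without sst1.1+ replicate 1 and also without replicate 2, 0.053 without sst1.1+ins+ replicate 3, 0.0995 without ins+ replicate 1, 0.155 without ins+ replicate 2 and 0.0609 with only the 2 groups in the fit.

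The gene foxa followed foxa2 in direction, at 18.6, 9.51 and 13.7 CPM in sst1.1+, 7.47, 6.84 and 8.45 CPM in sst1.1+ins+ and 0.947 and 3.41 CPM in ins+. The groups did not overlap, and the level in ins+ was 6.42-fold lower than in sst1.1+ with an edgeR adjusted p of 0.0502, just short of the threshold. Its value varied with the ins+ library left out: the log2 fold change was -2.68 with all libraries, -3.88 without ins+ replicate 2 (edgeR adjusted p = 0.0335) and -2.03 without ins+ replicate 1 (0.164). It was called under 5 of 17 alternatives. The fourth gene of the group, foxa1, was at 0.974 to 3.80 CPM in sst1.1+, 2.10 to 7.39 CPM in sst1.1+ins+ and 3.49 and 5.23 CPM in ins+, and was not called.

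The ratio of foxa2 to foxa3 counts was looked at after these values had been seen. It was 1.14, 0.935 and 0.766 in sst1.1+, 0.737, 0.668 and 0.724 in sst1.1+ins+ and 0.256 and 0.172 in ins+. The ins+ libraries stood far below the rest, while the double-positive libraries lay just under the lowest sst1.1+ library. The ratio was 4.46 times lower in ins+ than in sst1.1+ and 3.38 times higher in sst1.1+ins+ than in ins+. The two-sided exact permutation p was 0.2 for both, the smallest that 3 against 2 libraries allow.

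**Figure D3:**
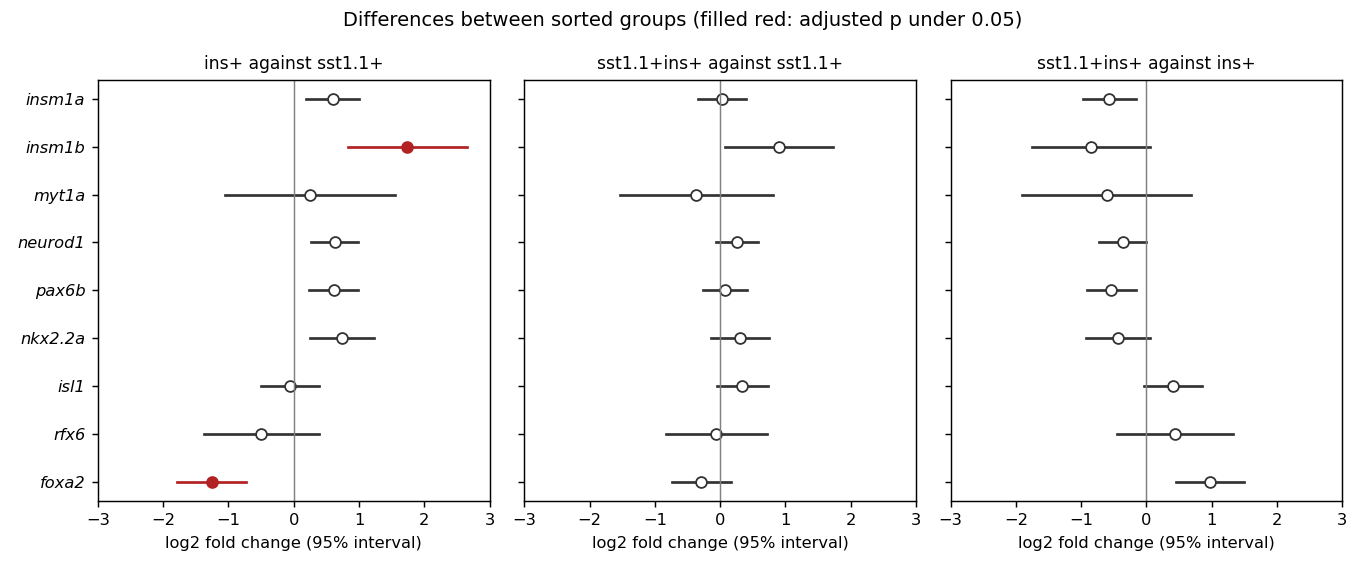
Log2 fold change of each tested factor in the 3 comparisons, with 95% intervals from the edgeR fit; filled red marks an adjusted p under 0.05. In ins+ against sst1.1+, insm1b at 1.74 and foxa2 at -1.26 are filled, and no member is filled in either comparison of the double-positive cells.

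Ranges of CPM describe the same contrast without a model. Between ins+ and sst1.1+, the ranges did not overlap for 5 members that were higher in ins+ (neurod1, pax6b, nkx2.2a, insm1a and insm1b) and for 1 that was lower (foxa2). Over all genes tested this held for 33.3%, of which 15.7% were higher and 17.7% lower as shares of all tested genes. At an unadjusted p under 0.05 there were 6 members, the same 6 genes, against 17.6% of all genes tested. The members isl1, rfx6 and myt1a overlapped.

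Markers of other cells and signs of cell stress moved with the same contrast. The immediate early and heat shock genes, such as atf3 and bag3, summed to 25306 to 28486 CPM in sst1.1+, 16443 to 19195 CPM in sst1.1+ins+ and 6990 to 7034 CPM in ins+, and 18 of the 22 tested were called lower in ins+. Alpha-cell markers, whose sum was almost wholly the glucagon genes gcga and gcgb, summed to 33768 to 66068, 24573 to 34222 and 11415 to 18712 CPM. Of 5 tested, edgeR called 2 lower in ins+, both of them glucagon genes, and irx2a and mafbb were at 0 in all libraries. DESeq2 called 3 lower and 1 higher, the latter ttr, at 0.123 ± 0.213 CPM in sst1.1+ and 3.26 ± 0.0334 CPM in ins+ (SD; edgeR adjusted p = 0.243, DESeq2 0.0352). Immune markers summed to 199.8 to 310.9, 55.85 to 125.3 and 78.63 to 98.29 CPM, with lcp1 at 0 in all libraries. This sum was almost wholly cd74a and cd74b, with means of 109 and 148 CPM in sst1.1+. In that group ptprc, mpeg1.1 and spi1b had means of 0.325, 0.146 and 0.451 CPM, and coro1a was at 0. Of 3 immune markers tested, edgeR called 1 lower in ins+, which was cd74a. DESeq2 and limma-voom each called 2 of 3 lower. The log2 fold change of cd74b was -1.09 by edgeR (adjusted p = 0.0531, DESeq2 0.00374, limma-voom 0.0475).

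Acinar markers summed to 40.84 to 176.6 CPM in sst1.1+, 46.6 to 104.3 CPM in sst1.1+ins+ and 24.63 to 73.17 CPM in ins+. Of 13 tested, edgeR called 0 for ins+ against sst1.1+, with 2 at an unadjusted p under 0.05, and DESeq2 called 2 of 12. Mesenchymal and endothelial markers summed to 1.243 to 76.3, 1.2 to 14.53 and 1.845 to 1.997 CPM, with PDGFRB, pecam1 and fli1a at 0 in all libraries. Enteric and neuronal markers summed to 327.8 to 401, 269.7 to 310.8 and 291.4 to 345.5 CPM, with sox10 at 0 in all libraries. Of these last lists edgeR called 0 of 4 and 0 of 3 for ins+ against sst1.1+ (unadjusted p under 0.05 in 2 and 0, DESeq2 calls 2 and 0). What these cells and states contributed to the levels of the 10 factors was not tested.

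In the double-positive cells no member was called against sst1.1+ by edgeR, DESeq2 or limma-voom. The called share of all genes in that comparison was 0.207% by edgeR, with 0.177% higher and 0.0305% lower. It was 2.23% by DESeq2 and 0.603% by limma-voom. The smallest edgeR adjusted p was 0.594, for insm1b, which was 1.86 times higher than in sst1.1+ (log2 fold change 0.90, 95% interval 0.07 to 1.72) and was the only member with an unadjusted p under 0.05, against 7.9% of all genes. Without sst1.1+ replicate 1 that log2 fold change was 0.51, and without sst1.1+ins+ replicate 3 it was 0.69. The ranges did not overlap for insm1b, which was higher, and foxa2, which was lower, and overlapped for the other 7. Over all genes tested they did not overlap for 14.7%, of which 7.38% were higher and 7.27% lower as shares of all tested genes.

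The 95% intervals show how large a difference from sst1.1+ these libraries allow for the other members. The log2 fold change of pax6b was 0.07 with a 95% interval of -0.26 to 0.41. That of insm1a was 0.03 with an interval of -0.34 to 0.40. Both intervals exclude a 1.5-fold difference in either direction, whereas those of rfx6 (-0.83 to 0.72) and myt1a (-1.53 to 0.80) do not. For neurod1 the log2 fold change was 0.26 (-0.07 to 0.59), for isl1 0.34 (-0.05 to 0.74), for nkx2.2a 0.31 (-0.14 to 0.75) and for foxa2 -0.29 (-0.74 to 0.16).

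Against ins+, the double-positive cells again had no member called by edgeR or limma-voom. The called share of all genes there was 0.92% by edgeR, with 0.755% higher and 0.164% lower, and 1.08% by limma-voom. The 3 comparisons share their libraries in pairs, so their values are not independent of each other. The level of foxa2 was 1.96 times that in ins+ (log2 fold change 0.97, 95% interval 0.45 to 1.49, edgeR adjusted p = 0.103). DESeq2, which called 6.57% of all genes there, called foxa2 (adjusted p = 0.00419) and pax6b (0.0473), and the fit with no filter on low counts called foxa2 (0.0235). At an unadjusted p under 0.05 there were 4 members (neurod1, pax6b, insm1a and foxa2), against 12.1% of all genes tested. The ranges did not overlap for 1 member that was higher and 5 that were lower than in ins+, against 16.4% and 14% of all genes tested, 30.3% together.

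The double-positive mean lay between the single-positive means for 7 of 9 members, all but isl1 and myt1a, as it did for 46.7% of all genes tested. On a linear scale of CPM where sst1.1+ is 0 and ins+ is 1, insm1b in the double-positive cells stood at 0.37 (0.26 to 0.44 with each library left out in turn) and foxa2 at 0.31 (0.20 to 0.41). The relative foxa3 stood at 0.10 (0.02 to 0.22), and the motor neuron and beta-cell homeobox gene mnx1 at 0.50 (0.44 to 0.60). HHEX, a homeobox factor of somatostatin cells, stood at 0.62 (0.53 to 0.67). For ins the place was 0.49 (0.47 to 0.51) and for sst1.1 it was 0.42 (0.37 to 0.48). Cells were sorted on reporters of ins and sst1.1, so the places of those genes describe the sort. Differences between the places of these genes were not tested.

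The relatives of the members add few calls. Of 24 relatives listed, 20 stood in the table and 12 were tested, and foxa3 was the only one called in any comparison by edgeR. Neurod2, neurod4, neurod6a and neurod6b were at 0 counts in all libraries, so neurod1 was the only one of the 5 NeuroD genes looked at that was detected. Among Rfx genes, rfx2 was at 33.7 ± 6.37, 31.4 ± 3.25 and 46.2 ± 1.40 CPM (SD) in sst1.1+, sst1.1+ins+ and ins+ and was not called (edgeR adjusted p = 0.376 for ins+ against sst1.1+). The level of rfx1b was 3.14 ± 1.17, 1.16 ± 0.908 and 8.87 ± 2.32 CPM, also not called (0.441). The paired gene pax4 was carried by single libraries, with 477 of its counts in sst1.1+ins+ replicate 2 and 101 in sst1.1+ replicate 3, and 0 to 62 in each of the others.

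Proteins that work with these factors, among them the E proteins that pair with NeuroD1, the LIM-domain binder Ldb1 that pairs with Isl1, and the corepressors of Insm1 and Nkx2.2, gave no called gene. Of 19 listed, 14 were tested, and edgeR called 0 in each of the 3 comparisons, with 3 at an unadjusted p under 0.05 in each. DESeq2 called 1 higher and 1 lower of 13 for ins+ against sst1.1+, and limma-voom called 0. For sst1.1+ins+, DESeq2 called 0 of 13 against sst1.1+ and 1 of 13 against ins+. The corepressor rcor2 was at 2.23 ± 0.955 CPM in sst1.1+ and 9.44 ± 3.22 CPM in ins+ (edgeR adjusted p = 0.133, DESeq2 0.0202). The Groucho-type corepressor tle3b was at 8.91 ± 2.23 and 0.529 ± 0.747 CPM (edgeR adjusted p = 0.115, DESeq2 0.00174), and its paralog tle3a at 6.07 ± 1.87 and 17.0 ± 4.38 CPM (SD, edgeR adjusted p = 0.202). For rcor3 all sst1.1+ libraries were at 0 counts and the ins+ mean was 0.499 ± 0.705 CPM, not called (0.318).

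The factors restricted to some islet cell types had 2 called higher and 2 called lower of 9 tested for ins+ against sst1.1+. The beta-cell genes mnx1 and nkx6.2 were higher in ins+ by 3.20 and 6.87 on the log2 scale (edgeR adjusted p = 0.000112 and 0.000547), and both were also called higher in sst1.1+ins+ than in sst1.1+. The nkx6.2 value was 7.81 without sst1.1+ replicate 3 and 8.6 by limma-voom. HHEX and fev were lower in ins+ by log2 fold changes of -2.09 and -1.33 (0.00191 and 0.00896), the latter not without ins+ replicate 1 (0.0638). Whether this count differs from that of the shared factors was not tested. Of these 9 genes, pdx1, a factor of pancreas progenitors and beta cells, was at 1414 ± 274, 1476 ± 30.3 and 1227 ± 91.4 CPM (SD) and was not called.

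Among 13 tested factors of pancreatic progenitors, sox4a rose from 108 ± 13.7 to 276 ± 59.6 CPM in ins+ (edgeR adjusted p = 0.00254). The Notch-responsive her6 fell from 14.0 ± 6.11 to 0.486 ± 0.476 CPM (0.0083, and 0.0818 by limma-voom), and hnf1bb, a duct and progenitor factor, fell from 33.2 ± 7.27 to 9.59 ± 1.60 CPM (0.0313). The her6 log2 fold change was -4.85, and it was -4.08 without ins+ replicate 1 and -6.5 without ins+ replicate 2. The hnf1bb call was lost without sst1.1+ replicate 1 (0.0811), sst1.1+ replicate 2 (0.104), ins+ replicate 1 (0.0768) or ins+ replicate 2 (0.173), and by limma-voom (0.0729). The other 10 were not called, and edgeR called 0 of the 13 in sst1.1+ins+ against sst1.1+ or against ins+ (2 and 3 at an unadjusted p under 0.05, with 1 and 2 called by DESeq2).

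Genes that the shared factors are known to activate include the hormone genes. Cells were sorted on reporters of ins and sst1.1, so the values of those genes describe the sort. Of 16 tested, ins and the glucose transporter gene slc2a2 were higher and sst1.1, gcga and gcgb lower in ins+ than in sst1.1+. The level of slc2a2 was 299 ± 33.9 CPM in sst1.1+, 342 ± 9.11 CPM in sst1.1+ins+ and 505 ± 17.0 CPM in ins+ (SD), a 1.69-fold rise (edgeR adjusted p = 0.012). That call was lost without ins+ replicate 1 (0.0743) or ins+ replicate 2 (0.0655). The gcgb log2 fold change was -2.08, and it was -2.89 without ins+ replicate 1 and -1.57 without ins+ replicate 2, where the call was lost (0.0509). In sst1.1+ins+, edgeR called 1 of the 16 against sst1.1+, ins, and 2 against ins+, ins and sst1.1. DESeq2 called 4 of 16 in each of these comparisons (2 higher and 2 lower), and limma-voom called 1 higher and 1 lower against sst1.1+ and 1 higher and 2 lower against ins+.

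Over the 8 libraries, the members differed among themselves in the shape of their profile. Likeness was measured as the root mean square difference of log2 CPM after each gene was centred on its own mean, so that 0 is an identical profile, and all values share the same 8 libraries and their depths. The closest members were pax6b with nkx2.2a (0.143), pax6b with insm1a (0.164) and neurod1 with insm1a (0.231). The farthest were insm1b and foxa2 (1.38), which moved in opposite directions. The copies insm1a and insm1b were 0.740 apart.

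Among 3794 named genes with a mean of at least 20 CPM, the gene nearest to insm1b was pcxb (0.250), a pyruvate carboxylase gene, at 149 ± 73.3, 256 ± 18 and 563 ± 60.6 CPM in sst1.1+, sst1.1+ins+ and ins+ (SD). The next was lgi2a (0.279). Nearest to foxa2 were isca1 (0.121), an iron-sulfur cluster assembly gene, and C2CD4A (0.155), at 535 ± 74.9, 419 ± 52.5 and 226 ± 13.8 CPM. These genes and their members show the same order of the 3 groups.

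The other members had these nearest genes. Nearest to neurod1 were ca7 (0.069) and anp32e (0.081), and to nkx2.2a ap1m1 (0.098) and u2af2b (0.117). The ribosomal protein genes rpl22 (0.076) and rpl8 (0.084) were nearest to insm1a, and pdzd11 and map3k7 (0.093 each) to isl1. Among the nearest to pax6b was atf6 (0.089). Nearest to rfx6 were creb3l1 (0.132) and pdha1a (0.139). The nearest genes of myt1a, sbf1 (0.293) and slc7a7 (0.297), were farther off than those of any other member.

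Several members lie close together in the genome. In the zebrafish RefSeq annotation of assembly GRCz12tu, which is not the build of the deposited counts and was used only for order, nkx2.2a and foxa2 stand on the same chromosome with 1 protein-coding gene between them. The gene insm1b has 4 protein-coding genes between it and nkx2.2a and 6 between it and foxa2. From sst1.1+ to ins+, insm1b rose and foxa2 fell, and nkx2.2a, at a log2 fold change of 0.74, was not called by edgeR. The differences between these changes were not tested.

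**Figure D4:**
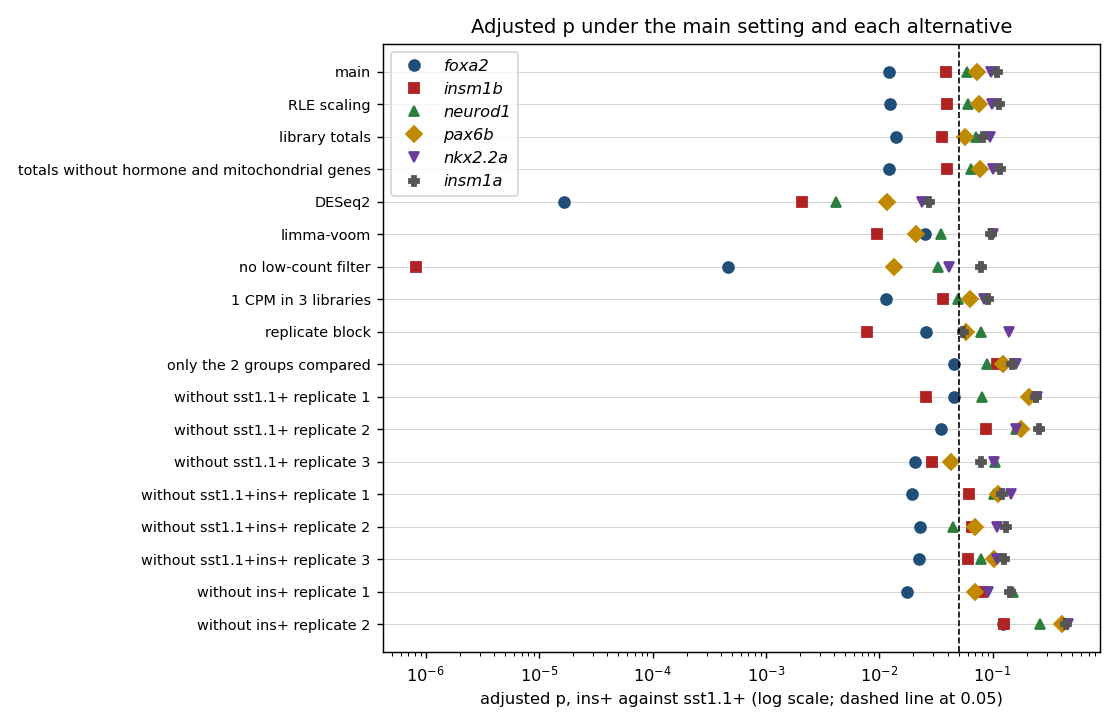
Adjusted p for ins+ against sst1.1+ of the 6 members with non-overlapping ranges, on a log axis, under the reported setting and 17 alternatives; the dashed line is 0.05. Foxa2 lies left of the line in all but the fit without ins+ replicate 2, insm1b crosses it in 7 alternatives, and neurod1, pax6b, nkx2.2a and insm1a cross it in 5, 4, 2 and 1.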

How the data were processed

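The deposited table holds unnormalized whole-number read counts for each gene in 8 Smart-Seq2 libraries. The submitters' processing notes name Trim Galore for trimming, HISAT2 with GRCz11 for alignment and featureCounts for counting over exons. The sources used here do not give versions, annotation release, strand setting or the handling of multiply aligned reads, so counts of near-identical copies and of overlapping genes are uncertain. Of 32046 rows, 92 ERCC spike-ins and 1 EGFP row stayed out of totals and tests (0.0145 to 0.0501% and 0.02 to 0.817% of counts). Depth ran from 16948429 to 30374029 gene counts, and intervals cover only counting error or the spread between libraries.

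The count test was the quasi-likelihood F-test of edgeR 4.0.16 under R 4.3.3, after the default expression filter by group (16418 genes) and TMM scaling. All 8 libraries entered with a mean for each group, leaving 5 residual degrees of freedom, and p-values were adjusted by Benjamini-Hochberg over all genes at 0.05. Alternatives in scaling and tool were RLE scaling, library totals, totals without hormone and mitochondrial genes, DESeq2 1.42.0 and limma-voom (limma 3.58.1). The limma-voom fit weighted each library by its estimated quality. Further alternatives were other filters, a replicate block, fits of only 2 groups and each library left out. The 10 factors and all gene lists were chosen with earlier results of these data known. Genes named beside the members were the up to 4 of each list with the smallest p for ins+ against sst1.1+ and the 2 nearest profiles per member (1 of which is not reported here), and slc2a2, pax4, foxa1, myt1b, pdx1 and genes at 0 were added after their values were seen. No genome was used here, so no sequence or coordinate is printed.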

Additional observations from a re-analysis of the deposited data

How the results depend on the processing

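Of 1237 values of single genes under the alternatives, 1154 kept their direction and their side of 0.05, 27 lost the call, 41 gained it and 15 changed sign. For ins+ against sst1.1+, the count of members called was 6 with DESeq2, 4 with limma-voom, 5 with no filter on low counts and 1 with only the 2 groups in the fit, and 0 to 3 with each library left out. It was 0 without ins+ replicate 2, and 1 without sst1.1+ replicate 2, sst1.1+ins+ replicate 1 or 3, or ins+ replicate 1. All genes called numbered 1919, 1276 and 383 with DESeq2, no filter and 2 groups, and 364 to 752 with a library left out, against 662. For sst1.1+ins+ against sst1.1+ they numbered 345, 99 and 229 with DESeq2, limma-voom and no filter, and 19 to 39 with a library left out, against 34, and no member was called in any of these. For sst1.1+ins+ against ins+ they numbered 958 and 560 with DESeq2 and no filter, and 59 to 192 with a library left out, against 151, with 2 and 1 members called, and 0 in every fit that left out a library. As a share of all genes tested, calls for ins+ against sst1.1+ were 12.4% with DESeq2 and 3.75% with limma-voom, against 4.03% as reported. This share was 5.62% with no filter and 2.55% with only the 2 groups in the fit. It was 2.55 to 4.68% with an sst1.1+ or sst1.1+ins+ library left out. A fit without an ins+ library leaves 1 library in that group, so no share is given beside its count of members. That count is not a result about the members. With no filter, the share called for sst1.1+ins+ was 1.01% against sst1.1+ and 2.47% against ins+. Fits with fewer libraries have fewer degrees of freedom, and the cause of these changes was not tested for any setting.

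Signs changed only where a library was left out. For ins+ against sst1.1+ these were isl1 (-0.31 to 0.15), elavl4 (-0.18 to 0.15), myt1b (-0.46 to 0.37) and elavl3 (-0.06 to 3.46). For sst1.1+ins+ against sst1.1+ they were pax6b (-0.03 to 0.18), insm1a (-0.08 to 0.15), rfx6 (-0.24 to 0.14) and myt1a (-1.03 to 0.04). The log2 difference in the ratio of foxa2 to foxa3 between sst1.1+ins+ and ins+ was 1.47 to 2.05 with a library left out.

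Deviations from the group mean in libraries with the same replicate number had correlations of -0.0291 to 0.0125 over 7 pairs. These deviations sum to 0 within each group. The values therefore cannot decide whether equal numbers mark shared fish, pools or sorts. With a replicate block, 2, 0 and 0 members and 648, 44 and 181 genes were called in the 3 comparisons. The median of all genes moved by at most 0.034 on the log2 scale under any scaling. With 2 to 3 libraries a group, counting depth was lowest among the tested members for rfx6 and myt1a, at 205 and 104 counts in their lowest libraries.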
